A study of Mus musculus with 6 samples.

Results

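The miR-30 family consists of microRNAs (miRNAs) that are cut from related hairpin precursors and share the seed, the bases 2 to 8 that pair with target transcripts. Its members here are rows of the table listed by name, with no threshold on their values: the 5 guide strands mmu-miR-30a-5p, mmu-miR-30b-5p, mmu-miR-30c-5p, mmu-miR-30d-5p and mmu-miR-30e-5p, and the 5 passenger strands mmu-miR-30a-3p, mmu-miR-30b-3p, mmu-miR-30c-1-3p, mmu-miR-30c-2-3p and mmu-miR-30e-3p. The prefix mmu, for Mus musculus, is left out below. These are 10 of the 1414 rows of the deposited table, and all 10 were among the 499 rows with enough counts to be tested. The 6 small-RNA libraries, 3 per group, came from pancreas of wild-type C57BL/6 mice weighing 22 to 25 g. Control mice (libraries 43, 44 and 45) received 7 intraperitoneal injections of saline, 1 per hour. Model mice (libraries 56, 57 and 59) received caerulein, an analogue of cholecystokinin that overstimulates acinar cells, at a stated 50 mg/kg on the same schedule. Lipopolysaccharide (LPS), a component of the bacterial outer membrane, was added at the last injection, and the treatment label of these libraries also lists saline. Pancreas was collected 24 hours after the first injection. Since both agents were given together, the effect of one cannot be told apart from that of the other. Whether the libraries of a group come from separate mice is not stated in the labels, and p-values then measure only the spread between libraries, some of which may be technical.

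Each hairpin yields a pair of arms, named 5p and 3p for their position. One arm, the guide, is loaded into an Argonaute protein and represses transcripts that match its seed, while the other, the passenger or star strand, is mostly degraded. In miR-30 hairpins the 5p arm is the guide. Repression of Snai1 and of connective tissue growth factor by miR-30 is textbook knowledge, and the family is linked to the maintenance of epithelial identity and to the restraint of autophagy through Beclin 1. Because the guides share a seed, their combined level is what a seed-matched transcript meets, while the passengers have other seeds.

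Mature sequences of 7 of the 10 members were found in RefSeq (GRCm38.p6) and were the same as the deposited ones. Members not matched were miR-30b-5p, miR-30d-5p and miR-30b-3p. The 3 guides shown first share a seed, given in capitals, and differ only after it.
miR-30a-5p: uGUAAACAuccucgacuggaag
miR-30e-5p: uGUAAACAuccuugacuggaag
miR-30c-5p: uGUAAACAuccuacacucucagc
Passenger strands are shown because the members whose groups did not overlap were among them; their capitals mark 2 seeds, each shared by a pair.
miR-30a-3p: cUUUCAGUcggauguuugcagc
miR-30e-3p: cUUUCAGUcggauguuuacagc
miR-30c-1-3p: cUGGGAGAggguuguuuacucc
miR-30c-2-3p: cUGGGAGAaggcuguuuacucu
Counted from 1 at the 5′ end, miR-30a-5p and miR-30e-5p differed by 1 substitution, C13U, and miR-30a-3p and miR-30e-3p by 1, G18A. Reads with a sequencing error at that base could therefore be split uncertainly between miR-30a and miR-30e. Between miR-30c-1-3p and miR-30c-2-3p there were 3 substitutions, G9A, U12C and C22U.

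The miR-30 hairpins lie in clusters. In GRCm38.p6, Mir30a is on chromosome 1 from 23272269 to 23272339 and Mir30c-2 from 23291701 to 23291784, both on the plus strand and 19361 bases apart. GENCODE M21 places Mir30c-2 in an exon of the long noncoding Gm27028 and lists no host gene at Mir30a. Mir30c-1 (120769534 to 120769622) and Mir30e (120772606 to 120772697) are 2983 bases apart on the minus strand of chromosome 4, both in an intron of Nfyc, which encodes a subunit of the transcription factor NF-Y. The deposited table lists miR-30b and miR-30d on chromosome 15. One mature sequence, miR-30c-5p, is made by 2 hairpins, so its row sums both loci, whereas each passenger reports on its own hairpin. The hairpins of miR-30c are printed for that reason, with both mature arms in capitals.
Mir30c-1: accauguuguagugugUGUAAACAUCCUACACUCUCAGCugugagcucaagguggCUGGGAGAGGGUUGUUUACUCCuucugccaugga
Mir30c-2: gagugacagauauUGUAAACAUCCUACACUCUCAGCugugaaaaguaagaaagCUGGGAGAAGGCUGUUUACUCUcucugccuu

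Total counts per library ran from 1943693 to 3006220, and at least 99.9% of each lay in tested rows. Levels are given as CPM (counts divided by the library's count and brought to a common total) scaled by TMM factors (trimmed mean of M values), which set the typical miRNA equal between libraries. Ligation favours some sequences over others, so the order of levels between miRNAs is that of reads and not necessarily of molecules. Over all tested rows, edgeR's quasi-likelihood test called 5 higher (1.00% of rows) and 1 lower (0.200%) in the model group at an adjusted p under 0.05, together 1.20%. Groups did not overlap in 31.1% of rows. Acinar markers (5 of 5 with negative log2 fold changes, 0 called) summed to 57722 to 94276 CPM in control and 48865 to 51988 in model libraries. Leukocyte markers (4 of 5 positive, miR-223-3p called higher) summed to 4588 to 6861 and 5329 to 11459 CPM. Islet markers (2 of 3 negative, 0 called) summed to 59229 to 81154 CPM in control and 39045 to 52236 in model libraries, and endothelial markers (1 of 2 negative, 0 called) to 40543 to 47660 and 32192 to 37849. Erythroid and smooth muscle or fibroblast sums overlapped between the groups. No marker of these lists was at 0 in any library, and their part in the miR-30 values was not tested. In whole tissue, fewer cells of a type and less RNA per cell cannot be told apart.

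With TMM factors no difference between the groups was detected in the guides, and values with other scalings are given further down. Summed, the guides made up 2.95% ± 1.07 of all counts in the controls and 3.30% ± 0.363 in the models (SD, n = 3 each). By library this share was 2.82%, 1.96% and 4.08% in controls 43, 44 and 45, and 3.28%, 2.95% and 3.67% in models 56, 57 and 59. The groups overlapped, with the lowest and the highest library both controls. Among the 5 guides 0 were called, 4 log2 fold changes were negative and 1 positive, and the median was -0.05, beside 0.00 over all tested rows. The groups overlapped in each of the 5.

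The most abundant guide was miR-30b-5p, at rank 27 of the tested rows. Its level was 11396, 11942 and 16212 CPM in controls 43, 44 and 45, and 10331, 10876 and 11683 in models 56, 57 and 59. The model libraries lay close together, models 56 and 57 below the lowest control and model 59 between controls 43 and 44. The log2 fold change was -0.27 (SE 0.17, 95% interval -0.65 to 0.12, edgeR adjusted p = 0.387). From the same chromosome 15 cluster, miR-30d-5p, a guide also known from pancreatic islets, was at 9635, 5419 and 16518 CPM in controls and at 11307, 8829 and 10526 in models. Here control 44 was the lowest library and control 45 the highest, with every model library between them. Its log2 fold change was -0.04, with an interval of -0.92 to 0.84 that leaves room for a change of nearly 1 log2 unit in either direction (edgeR adjusted p = 0.967).

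The guide miR-30a-5p, the family's reference member in studies of autophagy, was at 5397, 4141 and 10026 CPM in controls 43, 44 and 45, and at 6810, 5383 and 6745 in models 56, 57 and 59. The same controls were the extremes. The log2 fold change was -0.05 (95% interval -0.80 to 0.70, edgeR adjusted p = 0.964). For miR-30c-5p, the guide with 2 source hairpins, levels were 1689, 876 and 3580 CPM in controls and 1338, 1472 and 1737 in models. Control 44 again was the lowest and control 45 the highest library, and the log2 fold change was -0.43 (95% interval -1.53 to 0.66, edgeR adjusted p = 0.652). The scarcest guide, miR-30e-5p, was at 398, 316 and 1152 CPM in controls and 490, 584 and 939 in models. It was the single guide with a positive log2 fold change, 0.11, whose interval of -1.11 to 1.33 was the widest of the guides (edgeR adjusted p = 0.941).

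**Figure D1:**
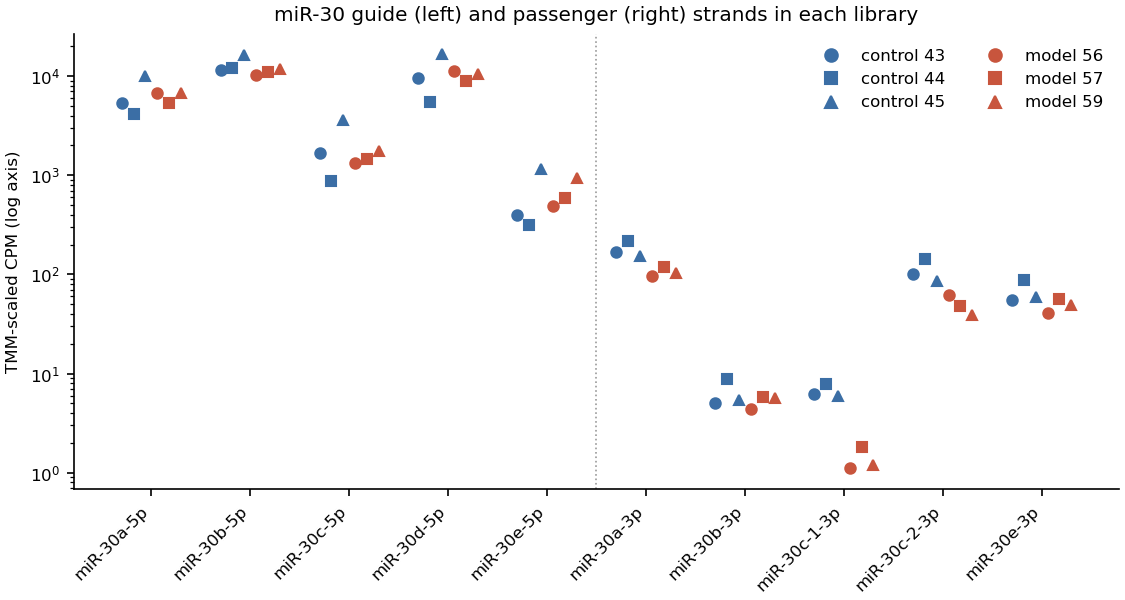
TMM-scaled CPM (log axis) of each miR-30 member in each of the 6 libraries, guides left of the dotted line and passengers right of it; blue symbols are control and red symbols model libraries. Every guide lies above every passenger in each library, by the least for miR-30e-5p over miR-30a-3p in control 44 (316 against 218 CPM). Control 44 (blue square) and control 45 (blue triangle) bracket the model libraries in 4 of the 5 guides. The model libraries lie below all controls in miR-30a-3p and miR-30c-2-3p, as in 16.6% of tested rows. They also do so in miR-30c-1-3p, a row that the filter on low counts admitted through its controls only.

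The order of the guides was stable except at the top. In all 6 libraries miR-30a-5p stood above miR-30c-5p, by 2.80 to 5.09 times, and miR-30c-5p above miR-30e-5p, by 1.85 to 4.25 times. Likewise miR-30d-5p was above miR-30a-5p in 6 of 6 libraries, by 1.31 to 1.79 times. The neighbours miR-30b-5p and miR-30d-5p did not differ beyond their spread: miR-30b-5p was higher in 4 of 6 libraries and the ratio ran from 0.914 to 2.20. Within the family's guide counts, miR-30b-5p took 42.2% ± 9.45 in the controls and 37.0% ± 2.97 in the models, and miR-30d-5p 30.8% ± 6.03 and 34.4% ± 2.59 (SD, n = 3 each). The remaining shares were 19.4% ± 1.50 and 21.2% ± 1.33 for miR-30a-5p, 5.77% ± 1.84 and 5.11% ± 0.601 for miR-30c-5p, and 1.74% ± 0.596 and 2.25% ± 0.680 for miR-30e-5p. Control 44 stood out with 52.6% of its guide counts in miR-30b-5p, against 34.1% to 40.1% in the other 5 libraries.

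**Figure D2:**
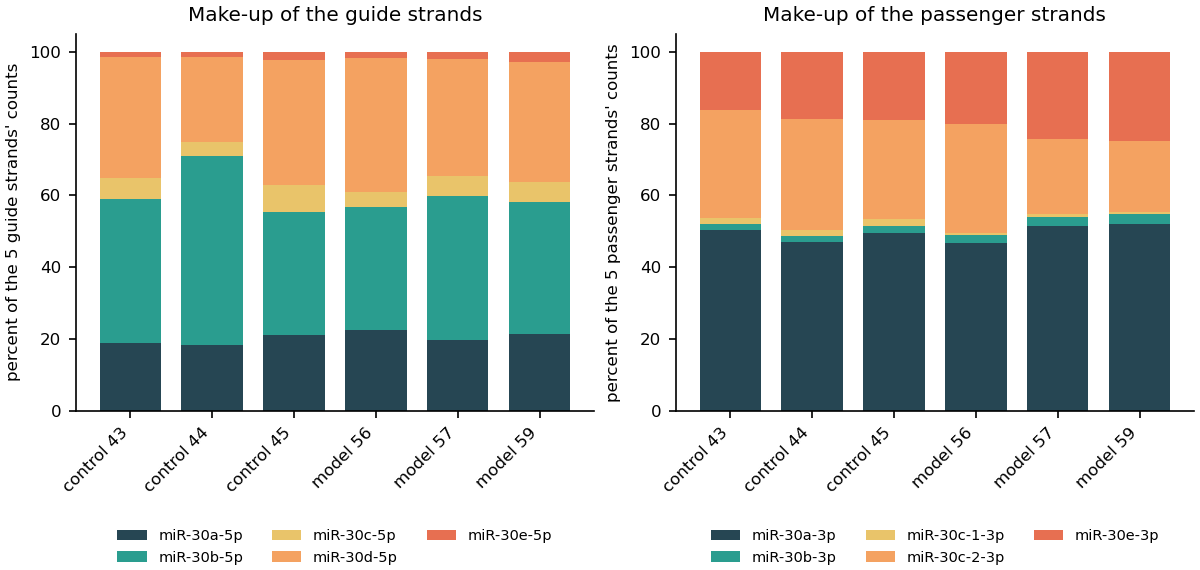
Stacked bars of the percent of guide counts (left) and of passenger counts (right) that each member took in each library. Guide make-up was similar in 5 libraries and shifted towards miR-30b-5p in control 44. The share of miR-30c-1-3p among passengers was smaller in every model library than in every control, on 3, 6 and 4 reads in models 56, 57 and 59. The filter on low counts admitted that row through its controls only.

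Passenger strands were scarce, and 0 passed the edgeR threshold. Together they made up 0.0333% ± 0.00678 of counts in the controls and 0.0233% ± 0.00151 in the models (SD, n = 3 each), and the direction rests on the scaling for some of them, as given further down. With edgeR 0 of the 10 members were called, guides included. One passenger, miR-30c-1-3p, reached the minimum count of 10 in control libraries only and so entered the test through the group where it was high. It is left out of the counts that follow, which cover the 9 members that reached the minimum in both groups. All 4 passengers among them had negative log2 fold changes, with a median of -0.62, where 49.7% of all tested rows were negative and their median was 0.00. At an unadjusted p under 0.05, 2 of the 9 members, miR-30a-3p and miR-30c-2-3p, were lower and 0 higher, where 12.4% of all tested rows were lower and 23.8% passed in either direction. DESeq2 called the same 2 lower, where it called 3.81% of all rows lower. These 2 also had model libraries below every control, as in 16.6% of tested rows.

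Passenger miR-30c-1-3p, from the Nfyc intron, had the fewest reads of the family. Its counts were 16, 16 and 10 in controls 43, 44 and 45, and 3, 6 and 4 in models 56, 57 and 59. Scaled, this was 6.16, 7.78 and 5.99 CPM against 1.11, 1.84 and 1.19, so that the groups lay well apart. The fitted log2 fold change was -2.22 (SE 0.43), given as a description, since the filter on low counts admitted the row through its controls. The fit without that filter does not depend on this, and there the edgeR adjusted p was 0.0265, where 2.48% of 1414 rows were called lower. The main fit, which has the filter, did not call the row (edgeR adjusted p = 0.0564). Over the alternatives, by edgeR or DESeq2, the adjusted p ran from 0.00525 to 0.209, the highest without model replicate 59. All of these but the fit without the filter rest on the admission through controls and are not used as support. Among passenger counts of the family it took 1.82% ± 0.132 in the controls and 0.650% ± 0.132 in the models (SD, n = 3 each), a share that does not depend on scaling between libraries.

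The passenger of the other miR-30c hairpin, miR-30c-2-3p, was not called by the main fit. Levels of miR-30c-2-3p, from chromosome 1, were 101, 143 and 85.7 CPM in controls 43, 44 and 45, and 61.8, 48.1 and 38.8 in models 56, 57 and 59. Every model library was below every control, as in 16.6% of tested rows, the nearest pair being model 56 and control 45. The log2 fold change was -1.15 (SE 0.30, 95% interval -1.84 to -0.46, edgeR adjusted p = 0.0802). The adjusted p was 0.0115 with DESeq2. With edgeR it was 0.0136 without the filter on low counts and 0.0386 with upper quartile factors (7.82% of rows called lower). It was above the threshold in other edgeR fits, at 0.122 with total counts alone and 0.217 without model replicate 59. The highest was 0.394, with the authors' library totals, at a log2 fold change of -0.40. Groups overlapped in miR-30c-5p, the guide that both miR-30c hairpins share, and its 95% interval of -1.53 to 0.66 includes the -1.15 of miR-30c-2-3p. A difference between guide and passenger is thus not shown, and their ratio in miR-30c-2, given further down, was not called (limma adjusted p = 0.596).

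The most abundant passenger, miR-30a-3p, was at 169, 218 and 153 CPM in controls 43, 44 and 45, and at 95.5, 119 and 102 in models 56, 57 and 59. Model libraries were again below all controls. Its log2 fold change was -0.77 (SE 0.24, 95% interval -1.33 to -0.22, edgeR adjusted p = 0.113). Of 16 alternatives 2 passed the threshold, DESeq2 (adjusted p = 0.0496) and edgeR with upper quartile factors (0.0462). The edgeR adjusted p was 0.270 with total counts alone. With the authors' library totals it was 0.976, at a log2 fold change of 0.02. The sequence nearest to it, miR-30e-3p, was at 54.7, 87.1 and 58.7 CPM in controls and 41.1, 56.1 and 48.7 in models. Model 57 lay above control 43, so the groups overlapped, and the log2 fold change was -0.46 (95% interval -1.10 to 0.18, edgeR adjusted p = 0.362). The rare miR-30b-3p, with 9 to 19 counts per library, was at 5.00, 8.76 and 5.39 CPM in controls and 4.44, 5.82 and 5.68 in models. Its log2 fold change of -0.26 had an interval of -1.17 to 0.65 (edgeR adjusted p = 0.763), so a difference of 1 log2 unit could not be told from none at this depth. The passenger of miR-30d, miR-30d-3p, is not among the 10 members and is given for completeness: it was at 39.6, 56.9 and 43.7 CPM in controls and 48.5, 28.5 and 34.9 in models (log2 fold change -0.33, edgeR adjusted p = 0.569).

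The order of the passengers was less even than that of the guides. In all 6 libraries miR-30a-3p was the most abundant, at 1.52 to 2.63 times miR-30c-2-3p, and miR-30e-3p had 8.58 to 10.9 times the counts of miR-30b-3p. The neighbours miR-30c-2-3p and miR-30e-3p changed places: their ratio was 1.46 to 1.84 in controls and 0.798 to 1.50 in models, with miR-30e-3p ahead in models 57 and 59. At the bottom, miR-30b-3p had 0.813 to 1.13 times the counts of miR-30c-1-3p in controls and 3.17 to 4.75 times in models, on 3 to 19 reads each.

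Passenger directions depend on what the libraries are scaled to. Scaled to the totals that the authors' RPM values imply, the typical row (median log2 fold change) moved up by 0.79, and 25.3% of rows were called (24.8% higher). All 5 guides then had positive values, from 0.45 for miR-30c-5p to 1.04 for miR-30e-5p, and 0 of 10 members were called. The edgeR adjusted p of the guides ran from 0.0577 for miR-30a-5p to 0.380 for miR-30c-5p. As a share of those totals, the summed guides were higher in the models by 0.148 percentage points (pooled SD of the groups 0.0577). Of the passengers, miR-30c-1-3p (-1.44) and miR-30c-2-3p (-0.40) kept a negative sign, while miR-30a-3p (0.02), miR-30e-3p (0.36) and miR-30b-3p (0.54) did not. With total counts alone, 4 of 5 guides were positive and 4 of 5 passengers negative.

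**Figure D3:**
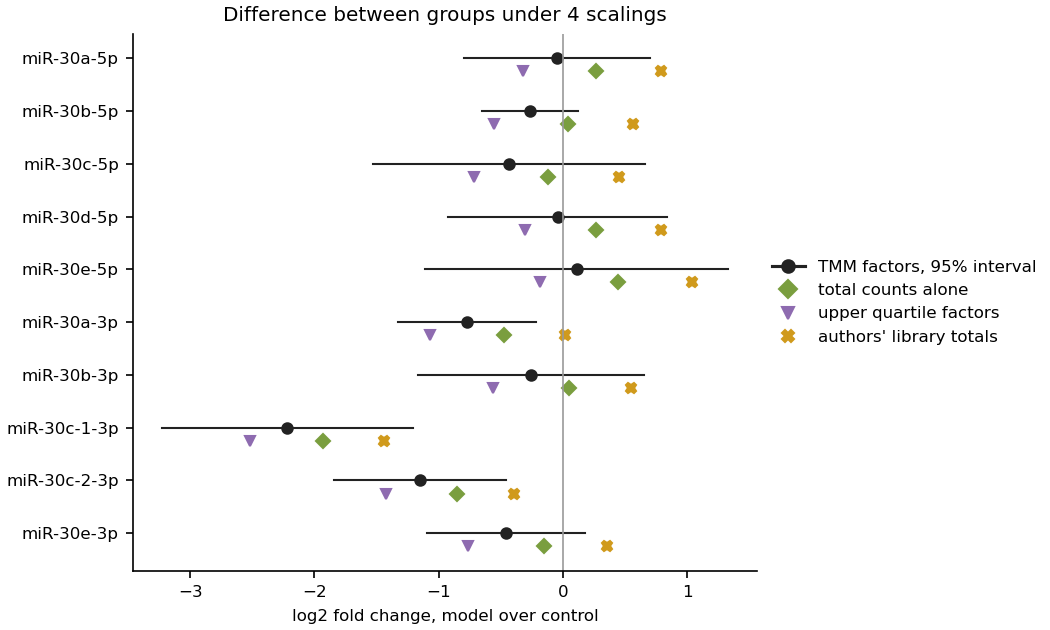
Log2 fold change, model over control, of each miR-30 member with TMM factors (black points, lines are 95% intervals) and, slightly below, with total counts alone (green), upper quartile factors (purple) and the authors' library totals (yellow). All members shift together from one scaling to the next, and miR-30c-1-3p and miR-30c-2-3p stay left of 0 under all 4 scalings.

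Dividing 5p by 3p counts of the same hairpin takes the scaling out. These ratios were tested with limma over the 143 hairpins that averaged 10 counts or more on each arm, of which 1 (0.699%) was called and 20 (14.0%) had an unadjusted p under 0.05. Of the 5 miR-30 hairpins tested 0 were called, none had an unadjusted p under 0.05, and 0 had groups apart, where 19.6% of all hairpins did. The differences of miR-30a, miR-30c-2, miR-30d and miR-30e were positive, meaning relatively more guide in the model group, and that of miR-30b was 0.00, where 54.5% of all hairpins were positive. The hairpin of miR-30c-1 was left out there, since its 3p arm had a mean of 9.17 counts. Its ratio to the shared guide was 274, 113 and 597 in controls 43, 44 and 45. In models 56, 57 and 59 it was 1204, 800 and 1454, on 3, 6 and 4 passenger reads, and every model library lay above every control. Since the guide row sums both miR-30c hairpins, the ratio is not the arm balance of miR-30c-1 alone. With the minimum lowered to a mean of 1 count, its log2 difference was 1.87 (SE 0.62, 95% interval 0.42 to 3.32, limma adjusted p = 0.388, unadjusted 0.0183 by limma), where 0.417% of 240 hairpins were called and 11.7% had an unadjusted p under 0.05.

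In miR-30a the guide outnumbered the passenger 31.9, 19.0 and 65.4 times in controls 43, 44 and 45, and 71.3, 45.4 and 66.0 times in models 56, 57 and 59. Control 45 fell within the model range and the other controls below it. On the log2 scale the difference in ratio was 0.81 (SE 0.49, 95% interval -0.34 to 1.96, limma adjusted p = 0.480). For miR-30c-2 the ratio to the shared guide was 16.7, 6.13 and 41.8 in controls and 21.6, 30.6 and 44.7 in models, a log2 difference of 0.93 (SE 0.69, 95% interval -0.68 to 2.53, limma adjusted p = 0.596). With both miR-30c passengers summed the log2 difference was 0.97. The most even arms were those of miR-30e, at 7.27, 3.63 and 19.6 guide counts per passenger count in controls and 11.9, 10.4 and 19.3 in models. Its log2 difference was 0.74 (SE 0.62, limma adjusted p = 0.625). At the other end miR-30b had 1364 to 3006 guide counts per passenger count in controls and 1867 to 2325 in models, and its log2 difference was 0.00 (95% interval -0.85 to 0.85, limma adjusted p = 0.999). The difference for miR-30d was 0.44 (SE 0.52, limma adjusted p = 0.785). Intervals this wide allow a doubling of the ratio in each of the other 4 hairpins and do not show that the arms kept their balance.

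**Figure D4:**
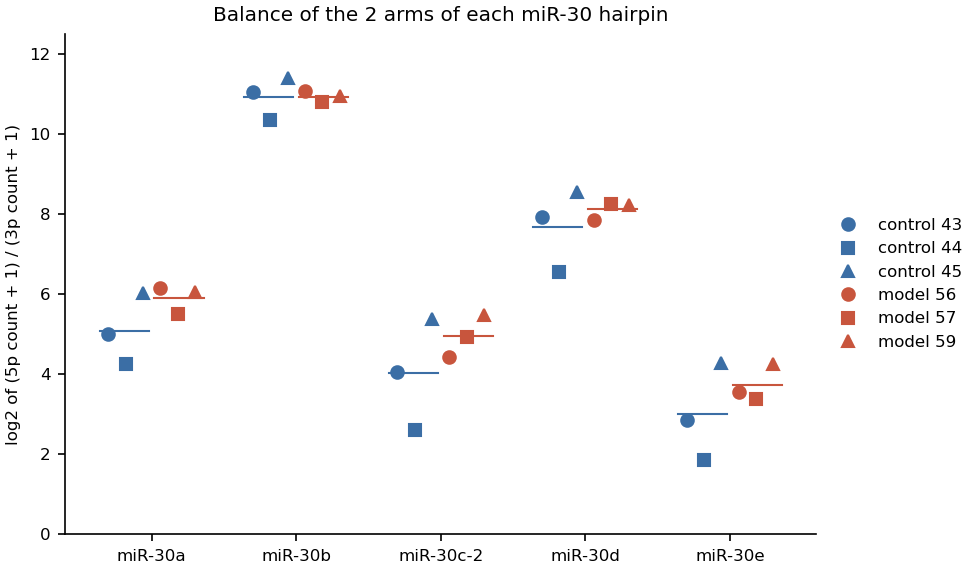
Log2 ratio of 5p to 3p counts (1 added to each) for the 5 tested miR-30 hairpins in each library, with horizontal lines at the group means; blue is control and red is model. Within each hairpin, control 44 (blue square) is the lowest library and the model libraries lie closer together than the controls.

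The control libraries differed among themselves in a shared order, and in all 5 hairpins their SD was larger than the difference between the group means. In each, the 5p to 3p ratio was lowest in control 44 and highest, among controls, in control 45, an order that 40 of the 143 hairpins had, these 5 included. Relative to the mean of the other controls, control 44 was lower by a median of 1.67 log2 units over the 5 miR-30 hairpins and by 0.10 over all 143. Both arms took part. From control 44 to control 45, guides were 4.09 times higher for miR-30c-5p, 3.65 times for miR-30e-5p, 3.05 times for miR-30d-5p and 2.42 times for miR-30a-5p, but 1.36 times for miR-30b-5p, while the 5 passengers were at 0.599 to 0.770 of their level. Among the 200 known rows of at least 100 CPM the median of this ratio was 0.977. In 28 of these rows it was at least 2, among them miR-30a-5p, miR-30c-5p, miR-30d-5p and miR-30e-5p. The summed acinar markers were at 57722, 57830 and 94276 CPM in controls 43, 44 and 45. The part of these differences in the miR-30 values was not tested. Total counts were 2381522 in control 44 and 1943693 in control 45, the latter the lowest of the 6.

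The spread of the arm ratio in controls was 1.38 (SD, log2) for miR-30c-2, 1.22 for miR-30e, 1.01 for miR-30d, 0.894 for miR-30a and 0.543 for miR-30b, beside a median of 0.515 over all hairpins. In model libraries it was 0.523, 0.468, 0.224, 0.348 and 0.137 in the same order, beside a median of 0.403. Leaving out a control moved the values accordingly. Without control 44 the log2 difference in arm ratio shrank to 0.39 for miR-30a and 0.22 for miR-30c-2, and became -0.11 for miR-30d. Without control 45 it grew to 1.28 for miR-30a, 1.61 for miR-30c-2 and 1.38 for miR-30e, with limma adjusted p-values of 0.112, 0.111 and 0.112. Guide levels responded as well: without control 45 the log2 fold changes were 0.38 for miR-30a-5p, 0.41 for miR-30d-5p and 0.89 for miR-30e-5p, and without control 44 they were -0.30, -0.36 and -0.21.

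How members varied together over the 6 libraries is given as a description, since all share the scaling and 3 share a treatment. On log2(CPM + 1), Pearson's r was 0.97 between miR-30a-5p and miR-30d-5p, from different chromosomes, and 0.51 between the clustered miR-30b-5p and miR-30d-5p. Passengers miR-30a-3p and miR-30c-1-3p, also from different chromosomes, had an r of 0.97. Between the arms of 1 hairpin r was -0.42 for miR-30a, -0.39 for miR-30e, -0.25 for miR-30d and 0.12 for miR-30b, and miR-30c-5p had an r of 0.06 with miR-30c-1-3p and -0.22 with miR-30c-2-3p. Outside the family, the rows most like miR-30b-5p among 436 known tested rows were miR-148a-3p (r = 0.96), miR-374b-5p (r = 0.96) and miR-125a-5p (r = 0.96). Most like miR-30a-3p were miR-3068-5p (r = 0.99), miR-744-3p (r = 0.98) and miR-1249-3p (r = 0.98).

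Other miRNAs with roles in epithelial identity or in limiting matrix genes (the miR-200 family, the miR-29 family and miR-133) gave a backdrop for the guides. Of 10 listed, 9 were tested, 0 were called in either direction, 3 log2 fold changes were positive and 6 negative, and the median was -0.16. The 3 most abundant were miR-200c-3p (-0.34, edgeR adjusted p = 0.157), miR-200a-3p (-0.46, edgeR adjusted p = 0.0866) and miR-429-3p (-0.52, edgeR adjusted p = 0.0745), each with model libraries below all controls, as in 16.6% of tested rows. In the other 6 tested, miR-200b-3p, miR-141-3p, miR-29a-3p, miR-29b-3p, miR-29c-3p and miR-133a-3p, the groups overlapped.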

How the data were processed

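RNA in the range of 18 to 30 nt was purified on a gel, ligated to adapters with unique molecular identifiers and amplified, per the labels' protocols. The deposited table holds whole-number read counts per miRNA row, per the file headers, and RPM values that the authors obtained by dividing each count by a library total of 22055639 to 27876715, recovered here from rows with 100 counts or more. The meaning of that total is not given in the sources used, nor whether identifiers were collapsed. Bowtie2 and GRCm38.p6 are named without a role per the submitters' processing notes.

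Counts were tested with edgeR 4.0.16 (R 4.3.3): filterByExpr with a minimum count of 10 and minimum total of 15, TMM factors, robust glmQLFit and two-sided glmQLFTest, with Benjamini-Hochberg adjustment over 499 rows and a threshold of 0.05. Arm ratios used limma 3.58.1 with robust empirical Bayes, adjusted over 143 hairpins. DESeq2 1.42.0 was an alternative. Intervals use the moderated degrees of freedom. The members and lists were chosen with earlier results of these data known, and every member is named. The labels give no batch.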

Additional observations from a re-analysis of the deposited data

How the results depend on the processing

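Of 174 refitted log2 fold changes of the members and miR-30d-3p, 141 kept their sign and their side of the threshold, 11 moved past it and 22 changed sign; of 49 arm ratios, 45 kept both and 4 changed sign. The number of miRNAs called among all rows was 6, and was 15 with RLE factors (7 higher, 8 lower), 18 with total counts alone (17 and 1), 45 with upper quartile factors (6 and 39), 126 with the authors' library totals (124 and 2), 58 without a filter on low counts (23 and 35), 10 with a minimum count of 50 (7 and 3), 38 with DESeq2 (19 and 19) and 15 with known rows only (8 and 7). Leaving out 1 library gave 3 to 10, with 3 without control 44, control 45 or model 57 and 10 without control 43. Scaling changed signs by its own construction. With total counts alone miR-30a-5p was at 0.27, miR-30b-5p at 0.043, miR-30d-5p at 0.26 and miR-30b-3p at 0.049. With upper quartile factors miR-30e-5p was at -0.18. With the authors' library totals miR-30a-5p was at 0.79, miR-30b-5p at 0.56, miR-30c-5p at 0.45, miR-30d-5p at 0.79, miR-30a-3p at 0.020, miR-30b-3p at 0.54, miR-30e-3p at 0.36 and miR-30d-3p at 0.43. The difference in passenger share was -5.1e-05 percentage points of those totals (pooled SD of the groups 0.00072). As a share of counts it was -0.0100 (pooled SD 0.0049). Those totals are larger than the counts, so the 2 differences are not on one scale. Over the fits without 1 library, log2 fold changes ran from -0.30 to 0.38 for miR-30a-5p, -0.80 to 0.21 for miR-30c-5p, -0.36 to 0.41 for miR-30d-5p, -0.21 to 0.89 for miR-30e-5p and -0.43 to 0.028 for miR-30b-3p, and arm ratio differences from -0.29 to 0.24 for miR-30b and -0.11 to 0.88 for miR-30d. With 0.5 counts added to each arm, the difference for miR-30b was -0.0083. The 11 calls that appeared were those of miR-30c-1-3p in 6 alternatives (in 5 of them the filter admitted it through controls), miR-30c-2-3p in 3 and miR-30a-3p in 2; the cause was not tested. Depth limits miR-30c-1-3p and miR-30b-3p, with 3 to 19 reads per library, while the other members had at least 98. No paired analysis was possible because the groups share no replicate number.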

Other observations

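One known row outside the family, miR-384-5p, carries the GUAAACA seed of the miR-30 guides. Its level was 111 ± 35.8 CPM in the controls and 81.5 ± 20.5 in the models (SD, n = 3 each; log2 fold change -0.45, SE 0.32, edgeR adjusted p = 0.438). In both groups the mean lay between those of the passengers miR-30a-3p and miR-30c-2-3p and below that of every guide. No other known row shared the seed of miR-30a-3p and miR-30e-3p or that of the miR-30c passengers.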
